A study of Capra hircus with 6 samples.

Results

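Intergenic circular RNAs (circRNAs) of goat back muscle are described here: the 572 entries, of 25500 circRNAs in the deposited tables, that carry the class intergenic. They were chosen by that label alone, from 619 such entries, after leaving out 26 minus-strand entries around MYH8 and 21 entries around the noncoding gene LOC102191280. The other classes in the tables are exonic (22285 entries) and intronic (2596 entries). The kid group comprised 3 libraries of the back muscle longissimus dorsi from Haimen goats at 1 day of age. The fetus group comprised 3 libraries of the same muscle and breed at 75 days of gestation. No genotype or treatment is given for either stage, and whether the libraries of a stage stem from separate animals is not stated. The p-values therefore reflect library-to-library variation, which may be partly technical. The series asks which circRNAs differ between the 2 stages.

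A circRNA is made when a splice donor is joined back to an acceptor upstream of it, which leaves a closed RNA with no free ends. It therefore survives RNase R, an enzyme that degrades linear RNA, and it is recognised in sequencing by reads that cross the back-spliced junction. Most circRNAs consist of exons of a protein-coding gene, and some act by binding microRNAs or proteins. The class intergenic is given by circRNA callers when a junction cannot be assigned to 1 annotated gene. It can hold circles of unannotated or noncoding transcripts, circles that start in a gene and end beyond it, and junctions between neighbouring genes.

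Total RNA was depleted of ribosomal RNA, treated with RNase R and sequenced with a protocol that keeps strand. Back-splice reads numbered 77111, 42695 and 73922 in the kid libraries and 36484, 33222 and 56467 in the fetus libraries. Of the raw reads, 70.73% were kept in fetus 1 and 69.1% in fetus 2, against 84.01% to 87.92% in the other 4 libraries, so results that rest on them are given with and without both. The tissue label was checked on host genes of circRNAs. Of 12 skeletal muscle genes 9 had back-splice reads, with a summed level of 20866 to 26403 CPM (counts per 1000000 back-splice reads) in kid libraries and 12317 to 13093 CPM in fetus libraries. MYH1, MYH2 and MYH3 had none. Markers of endothelium summed to 118 to 193 CPM in kid and 86.9 to 213 CPM in fetus libraries. Erythroid markers summed to 0 to 133 CPM in kid and 26.7 to 69.5 CPM in fetus libraries. Fat markers summed to 0 to 27.6 CPM in kid and 0 CPM in fetus libraries. Nerve markers summed to 0 to 14.8 CPM in kid and 34.8 to 58.9 CPM in fetus libraries, on 1 and 6 reads. None of the 6 cartilage, tendon and bone markers had a read.

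The members were mostly rare. They held 10031 back-splice reads in all, 4776 in kid and 5255 in fetus libraries, with a median of 4 reads per member over the 6 libraries. Only 28 members reached 50 reads, while 325 had fewer than 5. A total of 340 members were listed in 1 library and 26 in all 6, 252 had reads in kid libraries alone, 179 in fetus libraries alone and 141 in both stages. No intergenic entry is listed with 1 read in a library, whereas exonic entries are so listed 15329 times and intronic entries 1341 times. A listed 0 for an intergenic circRNA may thus stand for 0 or 1 read, and counts of entries per stage are affected by this. Reads were concentrated in few members: 1 held 25.1% of them and the 10 richest held 52.2%.

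The label intergenic was set against gene positions. The ARS1.2 gene table was used only to say which genes lie at a member, since no source used here names the build of the files. All 24881 exonic and intronic circRNAs fell inside the gene of that table that bears their host's name. The strand of a gene was taken from its own circRNAs. On this basis 320 members (55.9%) overlapped at least 1 gene, so that intergenic here means assigned to no gene rather than lying outside genes. The other 252 (44.1%, 95% Wilson interval 40.0% to 48.2%) overlapped none. For 183 members 1 end lay in a gene and the other outside any, for 62 both ends lay in the same gene, for 59 the ends lay in different genes, and 16 enclosed whole genes. Where the strand was known, 216 members lay on the strand of the gene and 4 lay on the opposite strand only. Parts of at least 2 genes on the member's own strand were held by 17 members (2.97%, interval 1.86% to 4.71%), and 91 (15.9%) held at least 2 genes when strand was ignored. On X and on unplaced sequences only genes with circRNAs of their own could be used, which applied to 67 members.

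**Figure D1:**
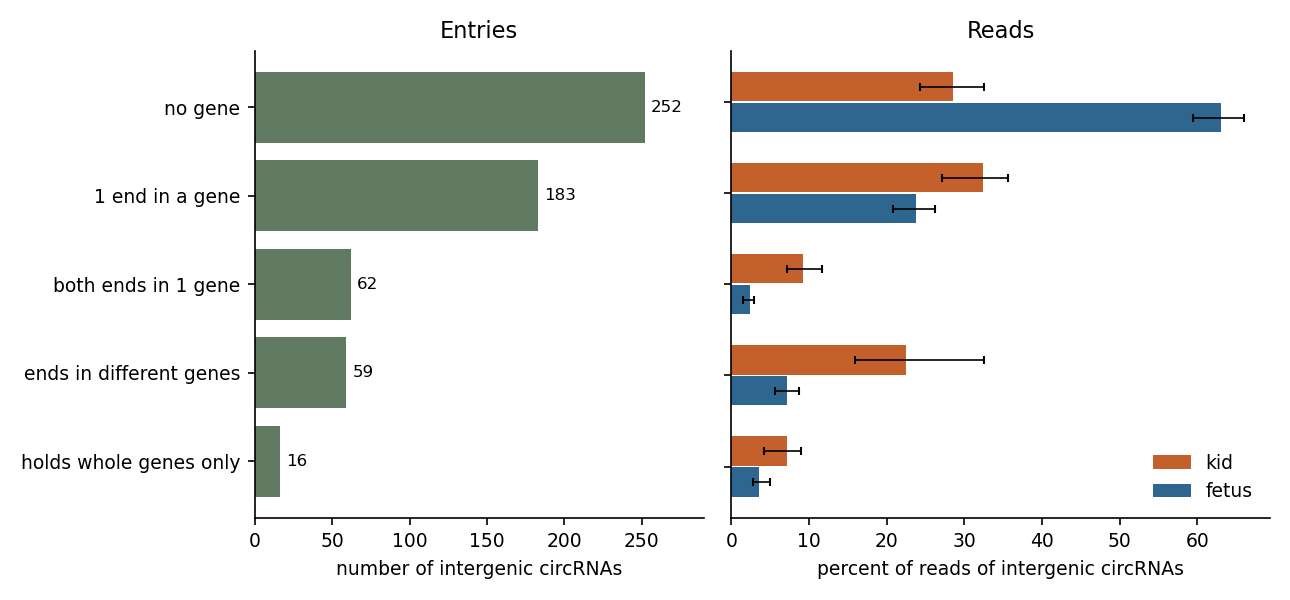
Gene context of the 572 intergenic circRNAs. The left panel gives the number of entries in each context, from 252 with no gene to 16 that enclose whole genes only; the right panel gives the percent of the members' back-splice reads in each context as the mean over 3 kid or 3 fetus libraries, with lines from the lowest to the highest library. The no-gene context holds a mean of 28.5% of reads in kid and 63.0% in fetus libraries.

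Many junctions used splice sites that other circles also used. Within a tolerance of 1 base, 109 members (19.1%) shared an end with an exonic or intronic circRNA, 55 at the lower coordinate, 63 at the higher and 9 at both. All 109 lay in contexts with a gene, which follows from every exonic and intronic circRNA lying inside its host gene. A further measure of reuse was found among the members themselves: 245 (42.8%) shared an end with another member. When members that overlap on 1 strand were joined, they formed 371 loci, of which 282 held 1 member and 44 held 3 or more, 200 members in all. Members of a locus therefore do not represent independent sources.

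The share of back-splice reads that fell in members was lower in kid than in fetus libraries, and the gap lay in 1 circRNA. The members held 2.19% (95% Wilson interval 2.08% to 2.29%), 2.63% (2.48% to 2.78%) and 2.66% (2.55% to 2.78%) of the reads of the kid libraries. They held 4.48% (4.28% to 4.70%), 4.17% (3.96% to 4.39%) and 3.95% (3.80% to 4.12%) of the reads of the fetus libraries. The stages did not overlap, and the means were 2.49% ± 0.27 in kid and 4.20% ± 0.27 in fetus libraries (SD, n = 3 each; exact two-sided permutation test p = 0.1, the smallest that 3 against 3 libraries can give, adjusted p = 0.16 over 8 such tests). A single member, circRNA6691, made up 4.75%, 3.21% and 6.65% of member reads in the kid libraries, against 46.6%, 43.4% and 40.7% in the fetus libraries. Without it the share was 2.37% ± 0.25 in kid and 2.37% ± 0.03 in fetus libraries (SD, n = 3 each; exact permutation p = 1).

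**Figure D2:**
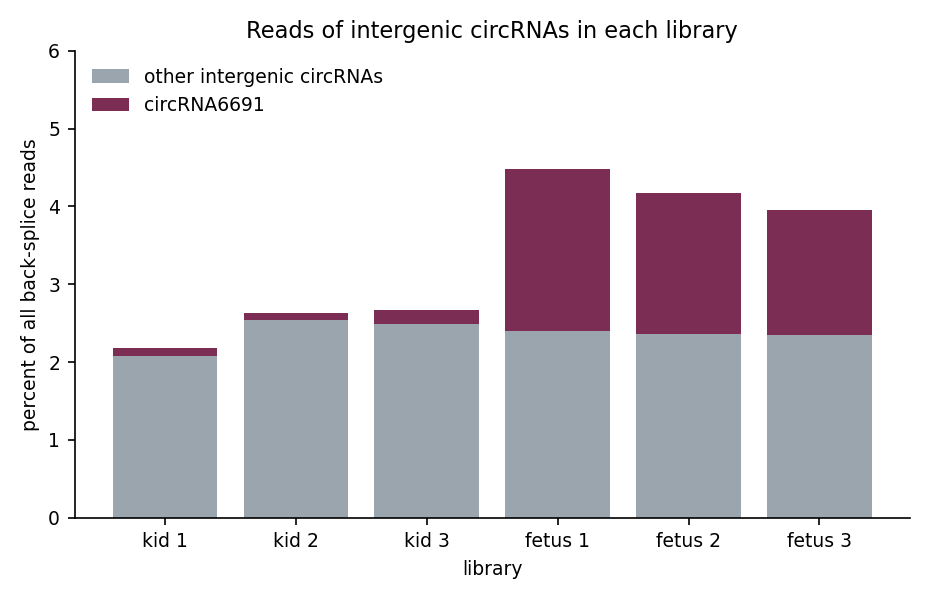
Percent of all back-splice reads of each library that lie in intergenic circRNAs, split into circRNA6691 and all other members. The total lies at 2.19% to 2.66% in the kid libraries and at 3.95% to 4.48% in the fetus libraries, whereas the part outside circRNA6691 lies between 2.08% and 2.54% in all 6.

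For the same comparison, exonic circRNAs held 85.5% ± 2.4 of reads in kid and 90.2% ± 0.26 in fetus libraries, and intronic circRNAs 8.81% ± 0.35 in kid and 5.03% ± 0.55 in fetus libraries (SD, n = 3 each; exact permutation p = 0.1 for each, adjusted p = 0.16). With the 47 entries around MYH8 and LOC102191280 put back, the intergenic share was 5.73% ± 2.57 in kid and 4.75% ± 0.31 in fetus libraries (exact permutation p = 0.9), so the direction of the gap depends on those entries. After thinning every library to 33222 reads, 189, 115 and 188 members were detected in the kid libraries and 160, 133 and 182 in the fetus libraries. These ranges overlap (exact permutation p = 0.8), and the direction changed when kid 1, kid 3 or fetus 2 was left out, with a difference of −7.12, −6.37 or −7.06 members. With at least 2 reads required for detection, kid minus fetus was −26.6 members (exact permutation p = 0.1, the smallest possible), so no direction can be given.

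The gene contexts also took different shares of the members' reads. Members with both ends in 1 gene held 9.29% ± 2.29 of member reads in kid and 2.39% ± 0.76 in fetus libraries, and those with ends in different genes 22.5% ± 8.8 in kid and 7.19% ± 1.58 in fetus libraries (SD, n = 3 each; exact permutation p = 0.1, adjusted p = 0.125 over 5 contexts). Both contexts stayed higher in kid when circRNA6691 was left out, at 9.78% ± 2.45 and 23.6% ± 8.8 in kid and 4.25% ± 1.40 and 12.7% ± 2.5 in fetus libraries. The second context consisted largely of circRNA6611, a junction from ASIP to ITCH on chromosome 13, with 685 of its 1010 kid reads and 197 of its 391 fetus reads. Without circRNA6611 members with ends in different genes held 8.25% ± 1.42 in kid and 3.76% ± 0.89 in fetus libraries, and without circRNA6691 as well 8.74% ± 1.40 and 6.88% ± 1.81 (exact permutation p = 0.3). Members with 1 end in a gene changed direction when circRNA6691 alone was left out. They held 32.4% in kid and 23.8% in fetus libraries with circRNA6691, but 34.1% in kid and 42.1% in fetus libraries without it. Members outside genes held 28.5% ± 4.1 in kid and 63.0% ± 3.3 in fetus libraries, and 24.9% ± 3.8 and 34.5% ± 2.5 without circRNA6691.

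Kid and fetus were compared for each circRNA that reached 5 reads in 3 or more libraries, by edgeR's quasi-likelihood test with Benjamini-Hochberg adjustment over all 1904 that met this, of which 42 are members. At an adjusted p under 0.05, 4 members rose in kid, against 6.93% of all circRNAs tested, and 6 fell, against 4.94% (11.9% called in either direction). The median log2 fold change, kid over fetus, was 0.49 over the 42 members and 0.02 over all 1904. Among exonic circRNAs 105 rose and 82 fell of 1732, and among intronic circRNAs 21 rose and 4 fell of 122. Kid and fetus CPM were fully separated for 21 of the 42 members, against 36.2% of all tested, and for all 10 members called. A listed read count of 3 corresponds to 42.4 to 82.6 CPM by library. The 530 members that were not tested did not reach 5 reads in 3 libraries.

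**Figure D3:**
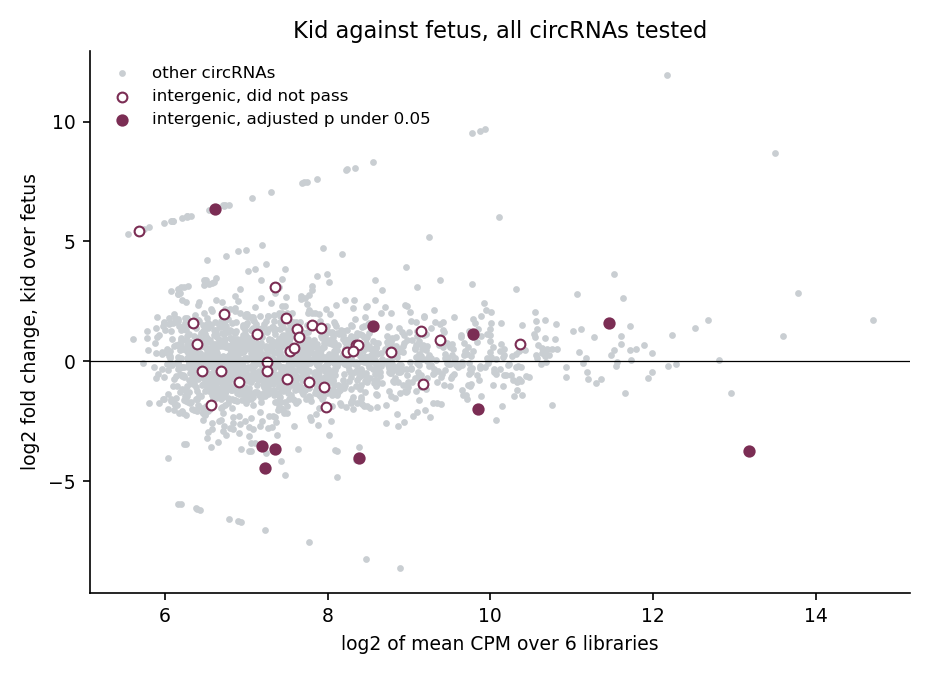
Log2 fold change, kid over fetus, against the log2 of mean CPM over the 6 libraries for all 1904 circRNAs tested. Filled circles are the 10 intergenic circRNAs past an adjusted p of 0.05 (4 above and 6 below the zero line), open circles the other 32 members, and grey points exonic circRNAs, intronic circRNAs and the entries left out. circRNA18036 and circRNA18065, the members above 5, had no fetus read, so their fitted values depend on the prior count of the fit.

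Of the members that fell, circRNA6691 was the most abundant intergenic circRNA, a minus-strand circle of 1463 bases at chrX:6635395-6636857. It had 80, 36 and 131 reads in kid libraries against 762, 602 and 908 in fetus libraries. Every kid library lay far below every fetus library. The level was 1296 ± 514 CPM in kid and 17236 ± 2316 CPM in fetus libraries (SD, n = 3 each), a fall of 12.4-fold over pooled reads (95% interval of the kid over fetus ratio 0.0702 to 0.0917, counting error only). The log2 fold change was −3.72 ± 0.27 (SE, edgeR adjusted p = 6.3e-05), and the call held with each library left out (adjusted p up to 0.00424) and with fetus 1 and fetus 2 both left out (adjusted p = 0.0419). The gene table places CDR1 at an overlapping position on X, but X is held in 2 sequences and the table does not tell which one carries CDR1. In human and mouse, the transcript opposite CDR1 forms CDR1as, a circRNA known for binding miR-7. No source used here gives circRNA6691 that name.

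A second X-linked member, circRNA6690, spans 487 bases at chrX:65541939-65542425, minus strand, with 1 end in GYG2. This gene encodes glycogenin-2, which primes glycogen synthesis. The circle had 31, 4 and 37 reads in kid against 68, 52 and 75 in fetus libraries, so all kid values were lower. Its level was 355 ± 227 CPM in kid and 1488 ± 256 CPM in fetus libraries (SD, n = 3 each), a log2 fold change of −2.01 ± 0.45 (SE, edgeR adjusted p = 0.0198). Exonic and intronic circRNAs of GYG2 fell as well, with 24 reads in kid and 118 in fetus libraries (log2 fold change −2.78 ± 0.43, SE; edgeR adjusted p = 9.5e-05 over 1755 host genes, of which 19.2% were called). The call of circRNA6690 ended when kid 1, fetus 1 or fetus 2 was left out, with an adjusted p of up to 0.0791.

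The other 4 members that fell had few kid reads. On chromosome 5, circRNA6562 (chr5:105662044-105677440, minus strand) has its lower-coordinate end in TSPAN9, a tetraspanin gene, and its other end outside any gene. It had 5, 0 and 2 reads in kid libraries against 11, 10 and 80 in fetus libraries, so that 1 fetus library held most of its reads. The log2 fold change was −4.05 ± 0.87 (SE, edgeR adjusted p = 0.0176), and the call ended without kid 2, kid 3 or fetus 3, with an adjusted p of up to 0.0717. Omitting fetus 3 gave a log2 fold change of −2.82, and omitting kid 1 gave −5.00. TSPAN9 itself hosted 1 exonic or intronic circRNA read in kid and 0 in fetus libraries. At the start of chromosome 21, circRNA6639 (chr21:831609-835286, plus strand) starts in the long noncoding RNA gene LOC108638493; the next gene with circRNAs is SNURF, a gene of an imprinted region in human and mouse. It had 2, 0 and 2 reads in kid against 17, 12 and 9 in fetus libraries. Every kid library was below every fetus library, with a log2 fold change of −3.67 ± 0.76 (SE, edgeR adjusted p = 0.0151).

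On chromosome 2, circRNA6542 (chr2:120751671-120753401, plus strand, 1731 bases) overlaps no gene and lies between UBE2E3, a ubiquitin-conjugating enzyme gene, and ITGA4, an integrin gene. It had 4, 0 and 0 reads in kid against 7, 11 and 20 in fetus libraries (log2 fold change −3.55 ± 0.90, SE; edgeR adjusted p = 0.0325). Only kid 1 held reads at this stage, and the call ended without kid 2 or kid 3 (adjusted p up to 0.0897). Omitting kid 2 gave a log2 fold change of −3.14, and omitting kid 3 gave −2.87. Without kid 1 no kid read remains, and the fitted value of −6.75 then depends on the prior count of the fit. circRNA6698 joins ends 112060 bases apart on an unplaced sequence and overlaps no gene with circRNAs. It had 2, 0 and 0 reads in kid against 14, 10 and 14 in fetus libraries. With 2 kid reads its pooled kid over fetus ratio was 0.0389 (95% interval 0.00455 to 0.151, counting error only), and its edgeR adjusted p was 0.0107. Both of its kid reads came from kid 1: its log2 fold change was −4.47 ± 0.85 (SE) with all libraries, −4.10 without kid 2 and −3.81 without kid 3, whereas without kid 1 no kid read remains. For circRNA6639, circRNA6542 and circRNA6698, leaving out a fetus library removed the entry from the test altogether.

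Of the members that rose, circRNA6611 had the most reads. It runs over 123126 bases on the plus strand of chromosome 13 (chr13:63244156-63367281), from ASIP across AHCY into ITCH, and its start was also used by a circRNA assigned to ASIP. ASIP encodes agouti signalling protein, an antagonist of the melanocortin receptor in pigment cells, AHCY encodes adenosylhomocysteinase, and ITCH encodes a HECT-type ubiquitin ligase. It had 157, 281 and 247 reads in kid against 46, 41 and 110 in fetus libraries. All kid values exceeded all fetus values, at 4222 ± 2424 CPM in kid and 1394 ± 401 CPM in fetus libraries (SD, n = 3 each). The log2 fold change was 1.58 ± 0.39 (SE, edgeR adjusted p = 0.0313), but the call ended without kid 2 or without any 1 fetus library (adjusted p up to 0.15).

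Of the 3 genes that circRNA6611 spans, ITCH gave most of the other circRNA reads. ASIP hosted 0 reads in kid and 1 in fetus libraries, AHCY hosted none, and ITCH hosted 100 in kid and 57 in fetus libraries (log2 fold change 0.35 ± 0.36, SE; edgeR adjusted p = 0.553). A tandem copy of this interval in the genome, transcribed in line, would give the same junction as a circle. In sheep, a tandem duplication that takes in ASIP and AHCY and reaches ITCH is known from white animals. Copy number was not measured in these files, so the 2 sources of such reads cannot be told apart.

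On chromosome 6, circRNA6571 (chr6:86550577-86557349, minus strand, 6773 bases) has 1 end in JCHAIN, at a position also used by circRNAs of that gene. JCHAIN encodes the joining chain of polymeric immunoglobulins, made by antibody-secreting cells. The circle had 93, 40 and 96 reads in kid against 24, 17 and 33 in fetus libraries. The stages did not overlap, with 1224 ± 209 CPM in kid and 550 ± 78 CPM in fetus libraries (SD, n = 3 each) and a log2 fold change of 1.15 ± 0.25 (SE, edgeR adjusted p = 0.0178). Exonic and intronic circRNAs of JCHAIN also rose, with 381 reads in kid and 118 in fetus libraries (log2 fold change 1.38 ± 0.31, SE; edgeR adjusted p = 0.00378). Of 4 immune marker genes only MRC1 had reads, with a sum of 0 to 74.4 CPM in kid and 0 to 17.4 CPM in fetus libraries. The part of immune cells in this result was not tested. The call ended without kid 1, fetus 1 or fetus 2 (adjusted p up to 0.0807).

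The other 2 members that rose were smaller circles. On chromosome 1, circRNA6535 (chr1:124477025-124477490, plus strand, 466 bases) overlaps no gene and lies between PLOD2, a collagen lysyl hydroxylase gene, and SLC9A9, a sodium-proton exchanger gene. It had 44, 21 and 37 reads in kid against 8, 6 and 13 in fetus libraries, which is 556 ± 57 CPM in kid and 197 ± 28 CPM in fetus libraries (SD, n = 3 each). The log2 fold change was 1.47 ± 0.33 (SE, edgeR adjusted p = 0.0198), and the call ended without kid 1, fetus 1 or fetus 2 (adjusted p up to 0.075). On chromosome 3, circRNA18036 (chr3:5094115-5098120, plus strand, 4006 bases) starts in ASB18 within 1 base of the start of a circRNA assigned to this gene. ASB18 belongs to the ankyrin repeat and SOCS box family, whose proteins select substrates for ubiquitin ligases. The circle had 9, 13 and 10 reads in kid libraries and none in any fetus library.

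Against a floor of 3 reads in each fetus library, circRNA18036 was 2.63-fold higher in kid libraries (edgeR adjusted p = 0.0272). This is not a strict lower bound, since a fetus library listed with none may still hold 1 read. Exonic and intronic circRNAs of ASB18 had 4, 6 and 6 reads in kid libraries and none in fetus libraries. The call of circRNA18036 ended without any 1 fetus library (adjusted p of 0.0543 to 0.0682), and without a kid library it was not tested. With fetus 1 and fetus 2 both left out, circRNA6691 was the 1 member still called, in a fit that takes the lone fetus library to vary like the kid libraries.

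**Figure D4:**
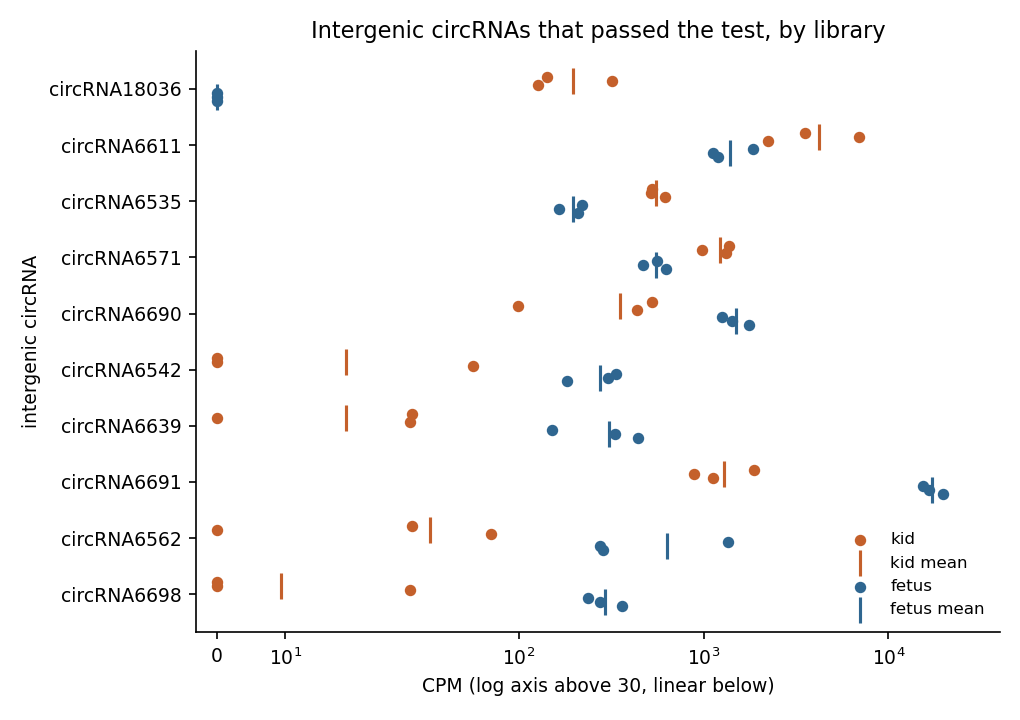
CPM of the 10 intergenic circRNAs that passed the test, 1 point per library, with vertical bars at the stage means; the axis is logarithmic above 30 CPM and linear below. Kid points lie right of fetus points for the upper 4 circRNAs and left of them for the lower 6, with no overlap between stages in any of the 10.

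The members just past the threshold showed where the call was drawn. The last called was circRNA6542 (edgeR adjusted p = 0.0325), and the next were circRNA6681 (0.0565), circRNA6677 (0.0566), circRNA6683 (0.0603) and circRNA10201 (0.0608). The minus-strand circRNA6681 (chrX:7134687-7148472) had 29, 14 and 21 reads in kid against 5, 4 and 9 in fetus libraries. On chromosome 28, circRNA6677 lies between JMJD1C and RTKN2 and had 23, 10 and 30 reads in kid against 4, 4 and 8 in fetus libraries. Neither overlapped between stages, yet neither passed the adjustment.

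Several of the richest members did not pass. circRNA6656 (chr22:58305714-58404500) encloses HDAC11, a histone deacetylase gene, and had 44, 92 and 144 reads in kid against 30, 53 and 45 in fetus libraries (log2 fold change 0.72 ± 0.46, SE; edgeR adjusted p = 0.369). Its stages overlapped. circRNA6573 lies within WDFY3, which encodes an adaptor of selective autophagy, on that gene's strand, and had 27, 24 and 38 reads in kid against 11, 14 and 27 in fetus libraries (edgeR adjusted p = 0.495). WDFY3 is the only gene at both ends of this circle, and the class was nevertheless intergenic.

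Near SIRT4, a mitochondrial sirtuin gene, 2 entries on chromosome 17 differ by 6 bases at the start and share their end. circRNA10225 had 100, 0 and 78 reads in kid and 0, 54 and 0 in fetus libraries. circRNA14296 had 0, 62 and 67 reads in kid and 0, 0 and 54 in fetus libraries. Only kid 3 listed both, and fetus 1 listed neither. Taken as 1 entry they had 100, 62 and 145 reads in kid against 0, 54 and 54 in fetus libraries, and neither entry alone passed (edgeR adjusted p = 0.851 and 0.762). There were 12 such pairs with both ends within 10 bases. Joining entries of every class whose ends lay within 10 bases and fitting anew gave 15 members called, of which 8 rose and 7 fell. Of the 5 not called before, only circRNA6683 belongs to 1 of these pairs, and joining within 1 base, which joins none of the pairs, already gave 14.

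At the level of loci, which sum members that overlap on 1 strand in the same fit, 42 loci were tested and 14 were called, 5 higher and 9 lower in kid (edgeR adjusted p under 0.05, with 12.1% called among all 1904 entries of that fit). Of the 14, 10 hold a member that was itself called. This summing was chosen after seeing the data. Exonic and intronic circRNAs stayed unsummed in the fit of loci, so the 12.1% is not a like background for summed loci. The X-linked locus of LOC102191314, a long noncoding RNA gene near RLIM, has 10 members, of which circRNA6683 is the richest. It had 36, 18 and 45 reads in kid against 57, 41 and 71 in fetus libraries. Its level was 532 ± 101 CPM in kid and 1269 ± 186 CPM in fetus libraries (SD, n = 3 each), with no overlap and a log2 fold change of −1.24 ± 0.25 (SE, edgeR adjusted p = 0.0132). The call ended without kid 1 or fetus 1 (adjusted p up to 0.0637).

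On chromosome 24, between EPB41L3, a membrane skeleton gene, and ARHGAP28, 5 overlapping minus-strand members had no listed kid read. They summed to 13, 16 and 11 reads in the fetus libraries. Against a floor of 3 reads per kid library, their level was 6.01-fold lower in kid (edgeR adjusted p = 0.00623). This is not a strict lower bound, since each of the 5 members may hide 1 unlisted read per kid library. On chromosome 2, between ATP5G3, a gene for a subunit of ATP synthase, and LNPK, a gene for an endoplasmic reticulum protein, 5 members summed to 3, 0 and 2 reads in kid against 8, 11 and 28 in fetus libraries. Their log2 fold change was −3.53 ± 0.70 (SE, edgeR adjusted p = 0.0127). No gene of the table is overlapped at either locus. Both loci met the read filter through the fetus libraries alone, so leaving out a fetus library removed them from the test. Both calls held in the 3 fits that left out a kid library, but those libraries held few or no reads. Both calls ended when the replicate number was added to the fit as a block.

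On chromosome 4, between AKAP9, a kinase-anchoring protein gene, and CDK14, a cyclin-dependent kinase gene, 5 members summed to 33, 20 and 28 reads in kid against 6, 8 and 4 in fetus libraries. The locus rose by 1.66 ± 0.46 on the log2 scale (SE, edgeR adjusted p = 0.0464), but this call ended with any 1 library left out (adjusted p of 0.0575 to 0.126). The unplaced locus of circRNA6698 has 7 members, which summed to 4, 0 and 0 reads in kid against 30, 13 and 36 in fetus libraries (log2 fold change −4.61 ± 0.80, SE; edgeR adjusted p = 0.00634). All 4 kid reads came from kid 1, and the log2 fold change was −3.92 without kid 3. The locus met the read filter through the fetus libraries alone, so leaving out a fetus library removed it from the test. At JCHAIN, 9 members summed to 121, 57 and 129 reads in kid against 30, 22 and 47 in fetus libraries (log2 fold change 1.18 ± 0.23, SE; edgeR adjusted p = 0.0112, and 0.0544 without fetus 2).

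The distance between the joined ends was long. Its median was 13689 bases for intergenic circRNAs (quartiles 2808 and 39457), against 7996 for exonic and 583 for intronic circRNAs. Among circRNAs with at least 5 reads the medians were 10991, 7244 and 2774 bases for the same classes. Distances over 100 kb were found for 5.07% of intergenic, 1.54% of exonic and 0.963% of intronic circRNAs. The deposited size equals this distance for all 572 members, so it does not give the length of the spliced circle. These values are descriptions, since the class depends on how a junction was annotated.

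**Figure D5:**
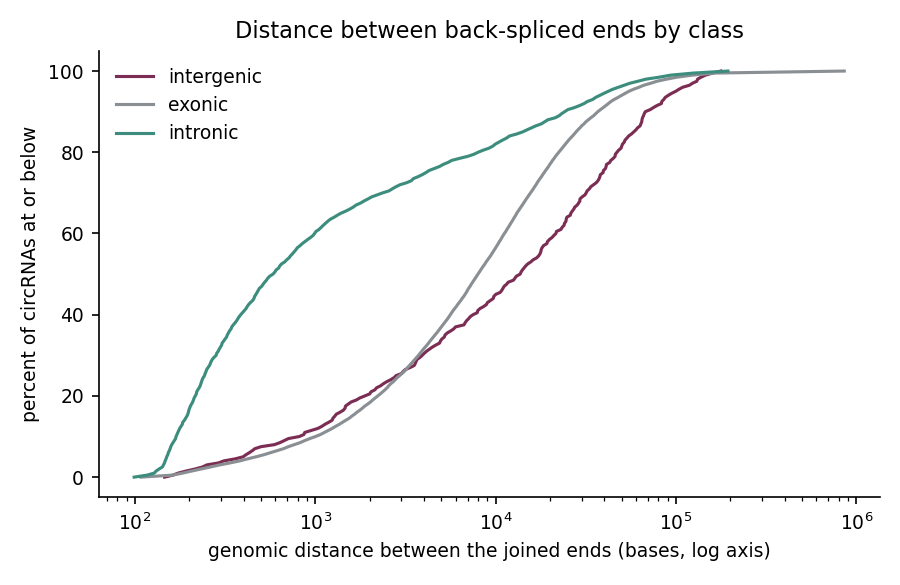
Cumulative percent of intergenic, exonic and intronic circRNAs by the genomic distance between their joined ends, on a log axis in bases. The intergenic curve reaches 50% at 13689 bases, the exonic curve at 7996 and the intronic curve at 583.

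At the extremes, the longest member was circRNA19891, which joins ends 177431 bases apart on chromosome 23 over CCHCR1, POU5F1 and 14 further genes of the table and had 2 reads, both in kid 2. circRNA10200 (175465 bases) and circRNA6551 start at 1 site in COL1A2, a collagen type I chain gene, on the strand opposite to it. circRNA10200 had no read in kid libraries and 4 in fetus libraries, and circRNA6551 had 5 reads in kid 3 and 3 in fetus 1. The shortest was circRNA6661, of 146 bases, with 2 reads in fetus 1. circRNA22673, of 149 bases, lies within TFDP2, which encodes a partner of E2F factors, and had 7 reads, all in kid 3.

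Some members touched genes of muscle proteins. circRNA18149 joins 2 positions within DMD, the dystrophin gene, on its strand, and its end is shared with circRNAs of DMD. It had 3, 0 and 4 reads in kid libraries and none in fetus libraries. On chromosome 10, circRNA6598 joins LOC106502520 and LOC102181869 on the minus strand, across MIR208B, a microRNA gene. The 2 joined genes are annotated in the files as myosin-6 and myosin-7. It had 0, 22 and 0 reads in kid against 6, 0 and 0 in fetus libraries. With 3 overlapping members it summed to 6, 28 and 8 reads in kid against 6, 0 and 0 in fetus libraries, and this locus did not pass (edgeR adjusted p = 0.246). circRNA18079 joins the same 2 genes on the plus strand, opposite to both, with 6 reads in kid 1.

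Members listed in every library of 1 stage and in none of the other numbered 7 for kid (1.22% of members, against 1.03% of all 25500 circRNAs) and 10 for fetus (1.75%, against 0.682%). With reads that stand alone in a library set to 0 in every class, the shares of all circRNAs were 0.914% for kid and 0.498% for fetus. Besides circRNA18036, the kid set holds circRNA18026 within the long noncoding RNA gene LOC102176916 on chromosome 1 (7, 4 and 11 reads) and circRNA18116 on chromosome 20, between PANK3 and SLIT3 (8, 12 and 2 reads). The fetus set holds circRNA6699 on the unplaced sequence of circRNA6698 (6, 3 and 10 reads) and circRNA6548 on chromosome 4 near COPG2 (5, 11 and 2 reads). It also holds circRNA6693 on X (3, 4 and 7 reads). Since a listed 0 can hide 1 read, these members were not listed in the other stage, which does not show that they were absent from it.

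By chromosome, X carried 51 members (8.92%), against 2.28% of exonic and 1.69% of intronic circRNAs, and 3433 of the 10031 member reads, most of them from circRNA6691. Unplaced sequences carried 16 members. The strands were used about evenly, with 301 members on the plus and 271 on the minus strand.

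The authors' deposited table marks 42 of the 572 members as significant, of 831 circRNAs marked in all, 18 higher in kid and 24 higher in fetus. Its log2 fold changes are of fetus over kid. All 10 members called here are among the 42. The mark was not set at a q-value under 0.05, since circRNA19866 is marked at q = 0.586 and circRNA18119 at q = 0.373. The 42 were thus marked at a looser threshold than the adjusted p used here. The authors' deposited table gives circRNA6691 a log2 fold change, fetus over kid, of 3.63.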

How the data were processed

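Ribosome-depleted, RNase R-treated RNA of goat longissimus dorsi was sequenced on strand-marked libraries, per the labels' protocols. Tools listed in the submitters' processing notes are TopHat, cutadapt and FastQC; no source used here names the circRNA caller, its settings or the genome build. Per the file headers, the authors deposited back-splice counts for every circRNA in each library, with position, strand, class and host gene, and counts of valid reads. The deposited percent of reads kept and the authors' normalized signal (SRPBM) were used for checks only. The authors' deposited comparison gives log2 fold changes of fetus over kid with p-values and q-values; no source used here names its test. The 2 deposited count tables differ at 13 member entries, and the table of back-splice reads was used. No genome sequence was used, so no junction sequences are shown.

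Members were the entries of class intergenic outside 2 ranges. Members, gene lists and tests were chosen with earlier results of these data known. All circRNAs that reached 5 reads in 3 or more libraries (1904) were tested on their counts by the quasi-likelihood method of edgeR 4.0.16 under R 4.3.3, with robust dispersions, TMM factors on the back-splice totals and Benjamini-Hochberg adjustment. CPM use the same TMM-scaled totals. The SE of an edgeR log2 fold change was derived as its absolute value divided by the square root of the quasi-likelihood F statistic. The same fit was run on reads summed by host gene (1755 tested) and on members summed by locus. The test was checked on simulated counts. Values per library were compared with exact permutation tests in Python 3.11.15 and scipy 1.17.1; detection was the mean of 20 thinned draws. Floors (3 reads per library) and intervals reflect counting error alone, because reads can be PCR copies of 1 molecule. Alternatives were other scalings, filters and count tables, DESeq2 1.42.0, a replicate block, each library left out, fetus 1 and fetus 2 left out, and near-identical entries summed. Named were the 10 members with the most reads, all members called, those holding a tissue marker gene, the 2 richest per gene context, and the 3 longest and 3 shortest; neighbours of the threshold, near-identical pairs, loci and members of 1 stage were named after their values were seen.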

Additional observations from a re-analysis of the deposited data

How the results depend on the processing

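The number of members called was 10 (4 higher and 6 lower in kid). The same 10 were called with DESeq2 and with the counts of the other deposited table. Without TMM factors 11 were called, these 10 among them. With no read filter 10 were called, of which 9 were the same. Requiring at least 10 reads in 3 libraries also gave 10 (5 higher, 5 lower), of which 7 were the same, among 28 members tested. With valid reads as library sizes 6 were called (2 higher, 4 lower). Summing entries within 1 base gave 14 (8 higher, 6 lower), and within 10 bases 15 (8 higher, 7 lower). Leaving out 1 library gave 2 to 7 calls (0 to 3 higher, 2 to 5 lower) with fewer libraries and fewer members tested, and leaving out fetus 1 and fetus 2 gave 1 (0 higher, 1 lower). Of 141 values of the 10 called members under alternatives, all kept their direction and 39 no longer passed. Settings in which a called member was not tested are not among the 141. The stages did not overlap in any of these members, so a change of direction was hardly possible. The median log2 fold change of all circRNAs tested was 0.02, −0.16 without TMM factors, 0.11 with valid reads, 0.31 with no read filter and 0.13 without fetus 3.

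The difference in read share, −1.71 percentage points, lay between −1.84 and −1.56 with 1 library left out, was −1.46 without fetus 1 and fetus 2 and −0.29 without the 10 richest members. It was 0.0028 without circRNA6691 (exact permutation p = 1) and 0.985 with the excluded regions (exact permutation p = 0.9). The difference in members detected at equal depth, 5.55, was −26.6 when 2 reads were required (exact permutation p = 0.1) and −18.3 without fetus 1 and fetus 2, with a range of −7.12 to 30.1 when 1 library was left out; the cause was not tested. Members holding parts of 2 or more genes, 2.97%, were 15.9% with strand ignored and 7.92% with the excluded regions. Leaving out circRNA6691, circRNA6611 or fetus 1 and fetus 2, joining entries within 10 bases or by locus, and setting reads that stand alone to 0 were chosen after seeing the data, except that the fit of calls without fetus 1 and fetus 2 was planned.

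Replicate numbers are not stated to pair animals, and same-numbered libraries did not deviate together (correlations 0.03, −0.03 and −0.02). Not every library correlated best with its own number. With the replicate block 2 members were called (1 higher, 1 lower), and the permutation within pairs of the read share gave p = 0.25.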

Other observations

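Further loci had reads in 1 stage only but were too rare for the test. On chromosome 18, 8 overlapping plus-strand members at ZFP90, a zinc finger gene next to CDH1, summed to 0, 4 and 28 reads in kid libraries and none in fetus libraries. On chromosome 2, 7 minus-strand members at EIF4G3, a translation initiation factor gene, summed to 11, 0 and 18 reads in kid libraries and none in fetus libraries. In both, 1 kid library had no read. On chromosome 23, the locus with the most members holds 11 plus-strand entries between CDKAL1 and NQO2 and overlaps no gene. It summed to 30, 6 and 19 reads in kid against 10, 4 and 15 in fetus libraries, and it did not pass (edgeR adjusted p = 0.640).

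Members at a gene and the circRNAs of that gene can be set side by side. At JMJD1C on chromosome 28, a gene of the histone demethylase family, 5 members summed to 21, 10 and 5 reads in kid against 2, 3 and 10 in fetus libraries and did not pass (edgeR adjusted p = 0.443), while the circRNAs assigned to JMJD1C rose, with 288 reads in kid and 89 in fetus libraries (edgeR adjusted p = 0.00901). The difference between the 2 kinds of circle was not tested.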
